A study of Rattus norvegicus with 20 samples.

Results

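The genes described here encode core parts of the splicing machinery and the RNA-binding proteins that coat nascent transcripts. They were taken as every gene whose symbol begins with Hnrnp, Srsf, Sfrs, Sf3a, Sf3b, Snrp, Prpf or U2af and that has a probe set annotated to that gene alone. The rule found 61 of the 14218 genes on the array, covered by 100 probe sets. They comprised 17 hnRNP genes, 11 SR protein genes (one of them the pseudogene Srsf7-ps4), 9 genes of the SF3A and SF3B complexes, 10 Snrp genes, 11 Prpf genes and 3 U2af genes. Each gene was read by its brightest probe set, the one with the highest mean log2 signal over all 20 arrays. Of the 61 genes, 60 passed the filter on low signal (mean log2 signal above 6.62). Srsf3, at a mean log2 signal of 5.31, did not.

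Male Sprague Dawley rats aged 20 weeks and weighing 250 to 300 g breathed either oxygen alone or 2% isoflurane (1.4 MAC, the minimum alveolar concentration unit of anaesthetic potency) in oxygen. Exposure lasted 15 minutes, and brain tissue labelled as cortex was taken after a recovery of 6 hours. Each group held 10 rats with 1 Affymetrix array per rat, numbered here by the replicate numbers of the labels. The bulk RNA of a tissue piece was measured, so fewer cells of a type and less RNA per cell cannot be told apart.

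The label of cortex did not hold for every array. In 11 arrays, those of isoflurane replicates 1, 3, 7, 8 and 9 and of oxygen replicates 5 to 10, the Purkinje cell gene Pcp2 read 13.60 to 14.17 on the log2 scale, and the summed signal of 5 cerebellar markers was 15.24 to 15.67. In the other 9 arrays Pcp2 read 4.46 to 10.67, the cerebellar sum was 7.18 to 12.25, and 6 cortical markers summed to 11.65 to 12.04 against 10.16 to 10.76 in the first set. These are called the high-Pcp2 and low-Pcp2 arrays. Among the low-Pcp2 arrays, 2 sets of libraries stood apart. Isoflurane replicates 2, 4, 5 and 6 had the lowest Pcp2 (4.46 to 5.93), while isoflurane replicate 10 read 10.67 and oxygen replicates 1 to 4 read 7.63 to 8.78. Oxygen replicates 2, 3 and 4 had array medians of 7.20 to 7.23 against 7.38 to 7.57 in the other 17 arrays. The log2 ratio of 3′ to 5′ signal of the control transcripts, which increases as RNA is degraded or incompletely copied, was 1.18 ± 0.25 in the oxygen group and 0.88 ± 0.18 in the isoflurane group (SD, n = 10 each). It was 1.59, 1.17 and 1.51 in oxygen replicates 2, 3 and 4, 0.92 in oxygen replicate 1 and 0.71 to 0.93 in the 5 low-Pcp2 isoflurane arrays. The part of these differences in the results below was tested only by leaving the libraries out or by adding the ratio to the fit.

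Introns are removed by the spliceosome, which is built from small nuclear ribonucleoproteins, each a small nuclear RNA wrapped in a ring of Sm proteins (Snrp genes). U2AF binds the polypyrimidine tract and the 3′ splice site, and the SF3A and SF3B complexes of the U2 particle then hold the branch point. The Prpf proteins assemble and remodel the tri-snRNP and the catalytic core, SR proteins bind exonic enhancers, and hnRNP proteins bind pre-mRNA widely and often repress exons. Neurons depend heavily on alternative splicing, and these proteins are present in all cell types of the brain.

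The promoters of 4 members are shown first, to set the sequence beside the values that follow. The 4 were called between isoflurane and oxygen with the array set (high-Pcp2 or low-Pcp2) as a block. Each of 20 such fits leaving out 1 array called them, but not each such fit over all arrays without the block. Hnrnpul1, which also passed all 20 blocked fits, is not shown. The sequences are the 250 bases before the annotated start of the gene in RefSeq's rat assembly GRCr8, which held 57 of the 61 genes. Capitals mark every match, on either strand and with overlaps joined, to 1 of 5 motifs. They are the GC box with the letters GGGCGG and the CCAAT box, named after its letters. The others are the ETS core, searched as CCGGAAG, the E box of the form CACGTG, and the cAMP response element, taken here only in its full palindrome TGACGTCA.
Sf3b5, chr1:9176939-9177188, plus strand: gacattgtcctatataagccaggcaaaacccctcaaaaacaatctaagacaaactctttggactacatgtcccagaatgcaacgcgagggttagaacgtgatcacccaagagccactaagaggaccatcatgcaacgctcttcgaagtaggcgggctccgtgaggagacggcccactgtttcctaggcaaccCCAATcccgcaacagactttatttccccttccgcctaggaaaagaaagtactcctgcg
Snrpb2, chr3:150852584-150852833, plus strand: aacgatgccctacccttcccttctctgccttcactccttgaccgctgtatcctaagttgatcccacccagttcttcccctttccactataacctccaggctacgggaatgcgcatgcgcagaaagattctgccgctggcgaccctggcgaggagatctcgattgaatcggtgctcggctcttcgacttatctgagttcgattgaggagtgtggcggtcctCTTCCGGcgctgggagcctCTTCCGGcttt
Hnrnpu, chr13:92618581-92618830, minus strand: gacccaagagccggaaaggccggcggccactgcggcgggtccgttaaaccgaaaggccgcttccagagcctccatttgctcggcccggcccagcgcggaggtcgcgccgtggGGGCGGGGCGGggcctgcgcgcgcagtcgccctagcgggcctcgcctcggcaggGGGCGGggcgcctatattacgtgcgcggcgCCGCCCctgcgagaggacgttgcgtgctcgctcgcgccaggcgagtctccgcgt
Hnrnpl, chr1:93228151-93228400, plus strand: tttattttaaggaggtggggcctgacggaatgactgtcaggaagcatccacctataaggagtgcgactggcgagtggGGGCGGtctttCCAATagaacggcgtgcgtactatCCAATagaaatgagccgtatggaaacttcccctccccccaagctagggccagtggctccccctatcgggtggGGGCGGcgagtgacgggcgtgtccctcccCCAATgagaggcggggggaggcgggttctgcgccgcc
The 4 promoters differ in what they hold. Sf3b5 has 1 CCAAT box, Snrpb2 has 2 ETS cores next to each other near the start, Hnrnpu has 4 GC boxes and no CCAAT box, and Hnrnpl has 2 GC boxes and 3 CCAAT boxes. Across the 57 members an ETS core was present in 28.1%, against 7.3% of 33469 promoter windows of the same length in the table. Those windows were not selected for genes on the array or for expressed genes, so the 2 sets are not alike. The GC box was present in 57.9% against 30.5%, the CCAAT box in 49.1% against 34.0%, the E box in 10.5% against 5.6% and the cAMP response element in 1.8% against 1.6%. The members' windows had a median GC content of 58.4%, against 51.2% for all windows. A match is a description of the sequence and no evidence of binding.

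Between isoflurane and oxygen over all 20 arrays, 1 of the 60 genes changed. Sf3b5, which encodes the smallest subunit of the SF3B complex, rose by 0.45 ± 0.10 on the log2 scale (SE), 1.36-fold, with an adjusted p of 0.0485 (limma, Benjamini-Hochberg over 18625 probe sets). The call was at the threshold: it held in 4 of 20 fits that left out 1 array, and the adjusted p was 0.0541 with quantile normalization and 0.0765 with arrays centred on their medians. The oxygen arrays averaged 10.20 ± 0.12 and the isoflurane arrays 10.65 ± 0.28 (SD, n = 10 each), with 9 of 10 isoflurane arrays above the oxygen mean. Of all 10315 genes tested, 0.524% were called in this comparison, 8 higher (0.0776%) and 46 lower (0.446%). Unadjusted p-values below 0.05 were found for 12 of the 60 members, beside 1524 of all 10315 genes. The median change of the 60 members was 0.06, against -0.03 for all genes, and 42 of the 60 were positive; with each array centred on its median the members' median was 0.00 and 30 were positive.

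The array sets differ so widely that the comparison was also made with the set as a block, which compares isoflurane with oxygen within high-Pcp2 and within low-Pcp2 arrays and pools both. In this fit 6 members rose and 3 fell. Sf3b5, Snrpb2, Snrpd3, Hnrnpu, Hnrnpa2b1 and Prpf38b rose, and Hnrnpl, Hnrnpul1 and Sf3b4 fell. They were 15% of the 60, beside 7.73% of all genes called in the same fit (1.86% higher and 5.87% lower). The 5 genes Sf3b5, Snrpb2, Hnrnpu, Hnrnpl and Hnrnpul1 were called in each of 20 fits that left out 1 array, and the other 4 in 5 to 12 of the 20. None of the 9 calls remained without isoflurane replicates 2, 4, 5 and 6 (limma; 12 members at an unadjusted p under 0.05), without oxygen replicates 2, 3 and 4 (19 members), or with the 3′ to 5′ ratio as a covariate (13 members).

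**Figure D1:**
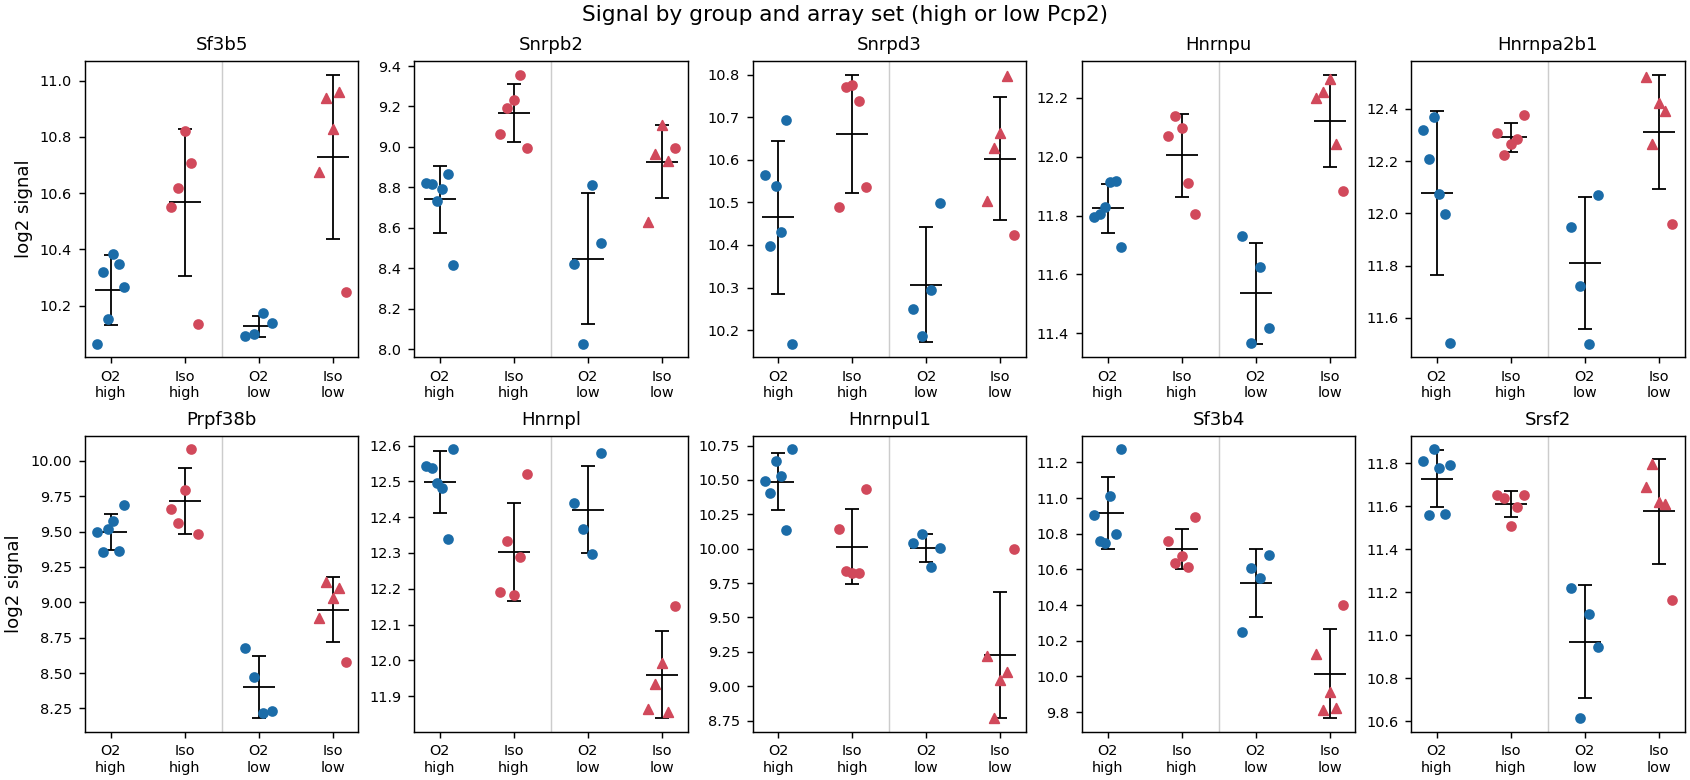
Log2 signal of 10 members in each array, by group (O2, oxygen, blue; Iso, isoflurane, red) and by array set (high or low Pcp2). Points are arrays, triangles are isoflurane replicates 2, 4, 5 and 6, and bars are the mean ± SD; Snrpb2 is the member among those shown whose isoflurane arrays all lie above the oxygen arrays in the high-Pcp2 set.

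In the SF3 family, which recognises the branch point, 1 of 9 genes rose and 1 fell in the blocked fit. Sf3b5 read 10.09, 10.10, 10.17 and 10.14 in the 4 low-Pcp2 oxygen arrays, and 10.67, 10.94, 10.83, 10.96 and 10.25 in the low-Pcp2 isoflurane arrays (replicates 2, 4, 5, 6 and 10). In the high-Pcp2 set the 6 oxygen arrays ranged from 10.06 to 10.38 (median 10.29), and the isoflurane arrays read 10.55, 10.62, 10.82, 10.71 and 10.13 (replicates 1, 3, 7, 8 and 9). The groups did not overlap in the low-Pcp2 set, and in the high-Pcp2 set 4 of 5 isoflurane arrays lay above all oxygen arrays, replicate 9 being the exception. The blocked change was 0.44 ± 0.10 (limma adjusted p = 0.0139); it was 0.31 ± 0.12 in the high-Pcp2 arrays (adjusted p = 0.35) and 0.60 ± 0.14 in the low-Pcp2 arrays (adjusted p = 0.0166). The interaction of group and set was -0.29 ± 0.18 for this gene and did not pass (adjusted p = 0.314). Without isoflurane replicates 2, 4, 5 and 6 the blocked change of Sf3b5 was 0.27 ± 0.09 (adjusted p = 0.198).

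Sf3b4, an RNA-binding subunit of SF3B, went the other way. It read 10.25, 10.61, 10.55 and 10.68 in the low-Pcp2 oxygen arrays and 10.13, 9.81, 9.92, 9.82 and 10.40 in the low-Pcp2 isoflurane arrays. The high-Pcp2 oxygen arrays ranged from 10.75 to 11.27 (median 10.85), and the isoflurane arrays read 10.76, 10.63, 10.67, 10.62 and 10.89. Isoflurane replicates 2, 4, 5 and 6 were the 4 lowest of the 20 arrays. The blocked change of -0.34 ± 0.09 passed the test (limma adjusted p = 0.0316), and without those 4 arrays it was -0.18 ± 0.09 (adjusted p = 0.324).

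Sf3b2, a large SF3B subunit next to the branch point, passed the test of the difference between the array sets. The low-Pcp2 oxygen arrays read 10.77, 10.86, 10.86 and 11.04, and the low-Pcp2 isoflurane arrays 10.33, 10.44, 10.52, 10.48 and 10.79. In the high-Pcp2 set oxygen ranged from 10.86 to 11.18 (median 10.98), and isoflurane read 11.03, 10.87, 11.19, 11.05 and 11.18. The change was -0.37 ± 0.11 in the low-Pcp2 arrays (limma adjusted p = 0.0361) and 0.07 ± 0.09 in the high-Pcp2 arrays, a difference of 0.44 ± 0.13 (adjusted p = 0.0423). That difference was called in 5 of 20 fits that left out 1 array, and with quantile normalization neither it (adjusted p = 0.0737) nor the low-Pcp2 change (adjusted p = 0.0504) passed. Its second probe set read the opposite way, as described below. The brightest probe sets of the other 6 members did not pass in any of the 5 fits to the signals as deposited. Sf3a2 did in the low-Pcp2 arrays with median centring. Their blocked changes ran from -0.11 (Sf3a2, adjusted p = 0.301) to 0.17 (Sf3b1, adjusted p = 0.461). Dimmer probe sets of Sf3b1 did pass. The brighter of these (mean 11.48) rose by 0.346 ± 0.099 in the blocked fit (limma adjusted p = 0.0396). In the low-Pcp2 arrays it rose by 0.594 ± 0.145 (adjusted p = 0.0193). The dimmest rose there by 1.695 ± 0.467 (adjusted p = 0.0298). Its lowest oxygen array read 5.977, below the filter level, so this size is uncertain. The dimmer probe set of Sf3a1 did not pass.

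Of the 10 Snrp genes, which encode the Sm ring and particle-specific proteins, 2 rose in the blocked fit and none fell. Snrpb2, the U2 B″ protein that binds U2 small nuclear RNA, read 9.06, 9.19, 9.23, 9.36 and 8.99 in the high-Pcp2 isoflurane arrays, and 8.42 to 8.87 (median 8.80) in the 6 oxygen arrays of that set. In the low-Pcp2 set oxygen read 8.42, 8.03, 8.81 and 8.53, and isoflurane 8.63, 8.97, 9.11, 8.93 and 9.00. Snrpb2 was thus the only 1 of the 60 members whose groups did not overlap in the high-Pcp2 arrays; 0.504% of all genes were higher without overlap there. In the low-Pcp2 set isoflurane replicate 2 lay below oxygen replicate 3. The blocked change was 0.45 ± 0.09 (limma adjusted p = 0.0118), with 0.43 ± 0.11 in high-Pcp2 and 0.48 ± 0.16 in low-Pcp2 arrays (adjusted p = 0.331 and 0.0629). Of the 9 called members it was the 1 whose blocked change was as large without isoflurane replicates 2, 4, 5 and 6 (0.45 ± 0.11), although that fit did not call it (adjusted p = 0.137).

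Snrpd3, an Sm core protein, rose by 0.24 ± 0.07 in the blocked fit (limma adjusted p = 0.0452). It read 10.25, 10.19, 10.29 and 10.50 in the low-Pcp2 oxygen arrays and 10.50, 10.63, 10.66, 10.80 and 10.42 in the isoflurane arrays of that set. Every 1 of the 10 isoflurane arrays exceeded the mean of the oxygen arrays (10.40), but the groups overlapped in both sets. The call was lost in the blocked fit with each array centred on its median (adjusted p = 0.193). The Sm core proteins did not move as 1 group: the blocked changes of Snrpb, Snrpd1, Snrpd2, Snrpe and Snrpf were -0.19, 0.19, 0.01, 0.04 and 0.09, with adjusted p of 0.119 or more. The blocked change of Snrpn, the neuronal SmN protein, was 0.22 ± 0.19 (adjusted p = 0.476).

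Among the 17 hnRNP genes 2 rose and 2 fell in the blocked fit. Hnrnpu, which encodes a nuclear scaffold protein that binds RNA and chromatin, read 11.73, 11.37, 11.62 and 11.42 in the low-Pcp2 oxygen arrays and 12.20, 12.22, 12.26, 12.04 and 11.88 in the low-Pcp2 isoflurane arrays. In the high-Pcp2 set the oxygen arrays ranged from 11.69 to 11.92 (median 11.82), and the isoflurane arrays read 12.07, 12.14, 12.10, 11.91 and 11.80. The mean of the oxygen arrays, 11.71, was exceeded on all 10 isoflurane arrays. The change was 0.59 ± 0.11 in the low-Pcp2 arrays without overlap (limma adjusted p = 0.0101), 0.18 ± 0.08 in the high-Pcp2 arrays (adjusted p = 0.377) and 0.36 ± 0.08 with the block (adjusted p = 0.0133). The probe sets of this gene disagreed. Its second brightest had a blocked change of -0.06 (adjusted p = 0.681). The third had the sign of the brightest, at 0.88 ± 0.34 with the block (adjusted p = 0.106) and 1.94 ± 0.46 in the low-Pcp2 arrays (adjusted p = 0.0179).

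Hnrnpl, which binds CA-rich sequences in introns and exons, fell by 0.31 ± 0.06 in the blocked fit (limma adjusted p = 0.0112). The low-Pcp2 oxygen arrays read 12.44, 12.37, 12.30 and 12.58, and the low-Pcp2 isoflurane arrays 11.87, 11.93, 11.99, 11.86 and 12.15. The high-Pcp2 oxygen arrays ranged from 12.34 to 12.59 (median 12.52), and the isoflurane arrays read 12.19, 12.33, 12.18, 12.29 and 12.52. The groups did not overlap in the low-Pcp2 set (8.29% of all genes were lower without overlap there), and in the high-Pcp2 set 4 of 5 isoflurane arrays lay below all 6 oxygen arrays. Hnrnpl was the only 1 of the 60 members lower without overlap in the low-Pcp2 set.

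Hnrnpul1, a relative of Hnrnpu linked to RNA export and DNA damage responses, had the largest change of the 9. It fell by 0.61 ± 0.13 on the log2 scale, 1.53-fold lower (limma adjusted p = 0.0119). The low-Pcp2 oxygen arrays read 10.04, 10.11, 9.87 and 10.00, and the low-Pcp2 isoflurane arrays 9.22, 8.77, 9.05, 9.10 and 10.00. Isoflurane replicate 10 lay within the oxygen range, and the other 4 isoflurane arrays were the lowest of all 20. The high-Pcp2 isoflurane arrays read 10.14, 9.84, 9.83, 9.82 and 10.43, against 10.13 to 10.72 (median 10.51) for oxygen. Without isoflurane replicates 2, 4, 5 and 6 the blocked change was -0.37 ± 0.12 (adjusted p = 0.174).

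Hnrnpa2b1, which binds and transports neuronal mRNAs, rose by 0.34 ± 0.10 in the blocked fit (limma adjusted p = 0.0472). It read 11.95, 11.72, 11.50 and 12.07 in the low-Pcp2 oxygen arrays and 12.52, 12.27, 12.42, 12.39 and 11.96 in the isoflurane arrays of that set. The call was lost under quantile normalization (adjusted p = 0.0817) and with arrays centred on their medians (adjusted p = 0.0872). Hnrnpab, a transcriptional and neuronal mRNA-binding member, had a change of -0.32 ± 0.13 in the low-Pcp2 arrays and 0.25 ± 0.10 in the high-Pcp2 arrays. Neither passed alone, and the difference of 0.57 ± 0.16 did (adjusted p = 0.0296; called in 14 of 20 fits that left out 1 array, and not with quantile normalization, adjusted p = 0.0574). Hnrnpm rose in the low-Pcp2 arrays by 0.61 ± 0.14 (adjusted p = 0.0146), and the groups did not overlap there. The other 11 hnRNP genes had blocked changes from -0.03 (Hnrnpa1) to 0.17 (Hnrnpf) on their brightest probe sets, and none of these passed in any of the 5 fits to the signals as deposited. With median centring Hnrnpd, Hnrnpc and Hnrnpa3 passed the interaction test, and dimmer probe sets of Hnrnpa1 and Hnrnpa3 passed in the blocked fit. In the low-Pcp2 arrays dimmer probe sets of Hnrnpa1, Hnrnpa3, Hnrnpdl and Hnrnph3 rose. Those of Hnrnpa1, Hnrnpdl and Hnrnph3 also passed the interaction test.

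In the SR family, proteins with arginine-serine repeats that promote exon inclusion, none of 10 genes passed in the blocked fit (limma). All 10 had a positive change, beside 4680 of all 10315 genes, and 4 had an unadjusted p under 0.05, beside 2681. In the low-Pcp2 arrays all 10 changes were positive with a median of 0.41 (4499 of all 10315 genes were positive). Srsf2, Srsf4 and Srsf5 rose there, beside 6.22% of all genes. Srsf7, among the 10, averaged 6.219 in the low-Pcp2 oxygen arrays, below the filter level. It passed the filter through its other arrays and is kept in the counts and medians of the family. In the high-Pcp2 arrays 5 of 10 were positive with a median of 0.00 (5046 of all genes were positive), and none passed (none had an unadjusted p under 0.05). With each array centred on its median, 9 of 10 were positive in the low-Pcp2 arrays, with a median of 0.20 and 1 call (Srsf5), and 7 of 10 in the high-Pcp2 arrays, with a median of 0.035. The difference between the sets was tested for each gene and not for the family. The lowest p of the family over all arrays was that of the pseudogene Srsf7-ps4 (0.42 ± 0.16, adjusted p = 0.206), whose probes may also read other genes of the family.

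Srsf2 is an SR protein that binds exonic enhancers in the nucleus, and its brightest probe set differed between the array sets in its change. In the low-Pcp2 set oxygen read 11.22, 10.61, 11.10 and 10.95, and isoflurane 11.69, 11.80, 11.62, 11.61 and 11.16. In the high-Pcp2 set oxygen ranged from 11.56 to 11.87 (median 11.79), and isoflurane read 11.65, 11.64, 11.51, 11.60 and 11.65. Oxygen replicates 2, 3 and 4 were the 3 lowest of the 20 arrays, and the low-Pcp2 isoflurane arrays other than replicate 10 lay within the range of the high-Pcp2 arrays. The change was 0.61 ± 0.15 in low-Pcp2 arrays (limma adjusted p = 0.0208) and -0.12 ± 0.08 in high-Pcp2 arrays (adjusted p = 0.495), a difference of -0.73 ± 0.16 (adjusted p = 0.0115). The interaction was called in each of 20 fits that left out 1 array. The second probe set of Srsf2 disagreed: its change was 0.22 in the high-Pcp2 and 0.26 in the low-Pcp2 arrays, a difference of -0.03 (adjusted p = 0.917). Without oxygen replicates 2, 3 and 4 the difference of the brightest probe set was -0.48 ± 0.20 (adjusted p = 0.371).

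Srsf5 had 1 probe set, with a similar pattern. Its low-Pcp2 oxygen arrays read 11.46, 10.98, 10.58 and 11.21, its low-Pcp2 isoflurane arrays 11.84, 11.76, 11.74, 11.95 and 11.48, and its high-Pcp2 oxygen arrays 11.43 to 11.94 (median 11.55). The high-Pcp2 isoflurane arrays read 11.77, 11.60, 11.46, 11.67 and 11.75. The change was 0.70 ± 0.16 in low-Pcp2 arrays (limma adjusted p = 0.0172) and 0.01 ± 0.10 in high-Pcp2 arrays, with a difference of -0.69 ± 0.20 (adjusted p = 0.0306; -0.29 ± 0.22 and adjusted p = 0.621 without oxygen replicates 2, 3 and 4). The interaction of Srsf5 was called in 10 of 20 fits that left out 1 array, and not with median centring (adjusted p = 0.0882). Srsf4 rose by 0.34 ± 0.10 in the low-Pcp2 arrays (adjusted p = 0.0358), and its interaction was -0.35 ± 0.12 (adjusted p = 0.0759). Of the members tested, Srsf5, Hnrnpu, Hnrnpm, Sf3b5 and Srsf4 were higher without overlap in the low-Pcp2 isoflurane arrays, beside 4.68% of all genes.

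**Figure D2:**
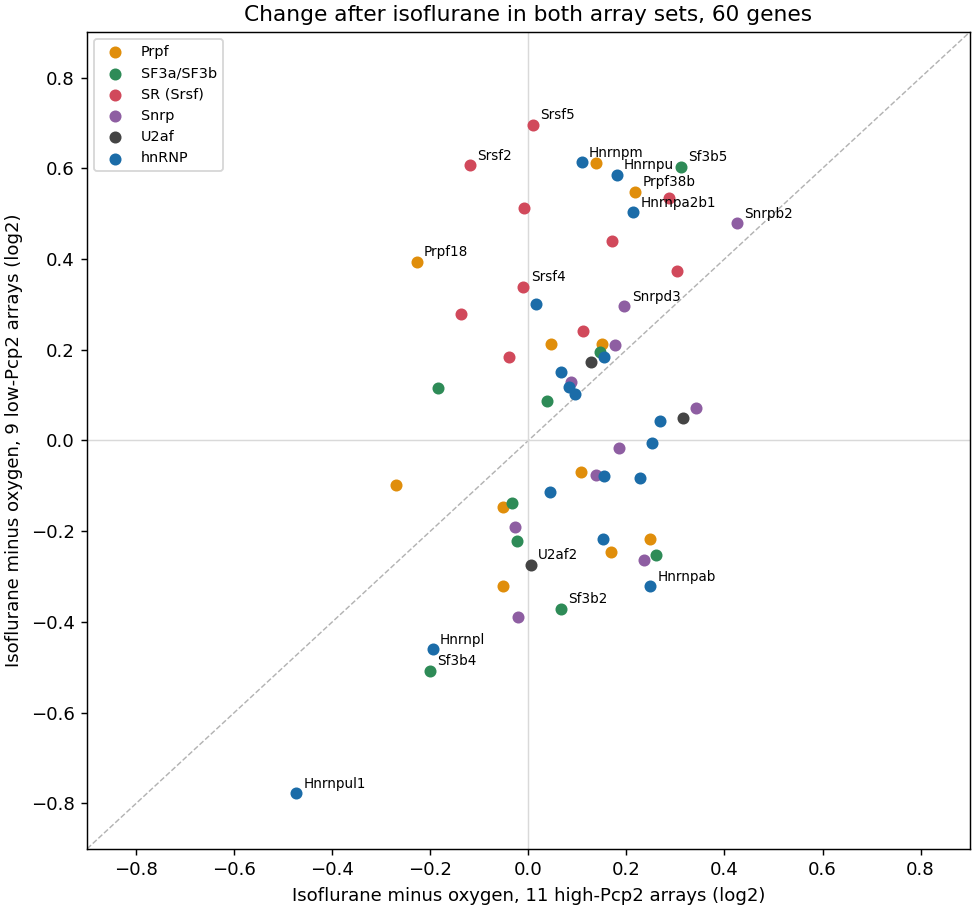
Change from oxygen to isoflurane (log2) in the 11 high-Pcp2 arrays (x axis) and the 9 low-Pcp2 arrays (y axis) for each of 60 genes, coloured by family, with the dashed line marking equal change. The SR genes lie above 0 on the y axis and on both sides of 0 on the x axis. The labelled genes passed the test in at least 1 fit.

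Of the 11 Prpf genes, Prpf38b, an SR-like factor needed to activate the spliceosome, was the 1 that passed in the blocked fit (0.37 ± 0.10, limma adjusted p = 0.0309). It read 8.68, 8.47, 8.22 and 8.23 in the low-Pcp2 oxygen arrays and 8.89, 9.14, 9.03, 9.10 and 8.58 in the low-Pcp2 isoflurane arrays. The high-Pcp2 oxygen arrays ranged from 9.36 to 9.69 (median 9.51), and the high-Pcp2 isoflurane arrays read 9.66, 9.56, 9.80, 10.08 and 9.49. With arrays centred on their medians the call was lost (adjusted p = 0.0578). Prpf18, a second-step factor, had a change of 0.39 ± 0.15 in the low-Pcp2 arrays and -0.23 ± 0.08 in the high-Pcp2 arrays. Neither passed, and the difference of -0.62 ± 0.17 did (adjusted p = 0.0232; called in each of 20 fits that left out 1 array, and not with median centring, adjusted p = 0.0925). Its low-Pcp2 oxygen arrays read 9.67, 8.85, 9.43 and 9.46, and its isoflurane arrays 9.75, 9.88, 9.66, 9.81 and 9.62. Prpf8, the protein at the catalytic centre, had a blocked change of -0.09 ± 0.07 (adjusted p = 0.41), and Prpf19, a ubiquitin ligase of the catalytic spliceosome, one of 0.18 ± 0.06 (adjusted p = 0.0717).

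The U2AF subunits, which recognise the 3′ splice site, did not pass in the blocked fit. The large subunit U2af2 had a blocked change of -0.12 ± 0.07 (limma adjusted p = 0.248) and fell by 0.27 ± 0.09 in the low-Pcp2 arrays (adjusted p = 0.0494), a call lost with quantile normalization (adjusted p = 0.0693). The blocked changes of the small subunit U2af1 and its paralogue U2af1l4 were 0.15 ± 0.06 and 0.20 ± 0.08 (adjusted p = 0.111 and 0.144).

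Within the array sets the counts stood as follows. In the 9 low-Pcp2 arrays 8 members rose and 5 fell by limma, 21.7% of the 60 beside 15.3% of all genes called (6.22% higher and 9.04% lower); with arrays centred on their medians 3 rose and 9 fell, as the median of all genes moved from -0.05 to -0.26. No member was called without isoflurane replicates 2, 4, 5 and 6 (none had an unadjusted p under 0.05, with 1 isoflurane array left), without oxygen replicates 2, 3 and 4 (6 had, with 1 oxygen array left) or with the 3′ to 5′ ratio as a covariate (3 had). In the 11 high-Pcp2 arrays limma called 0 of 60 members, as it did for all genes (0%). Unadjusted p-values under 0.05 were found there for 11 members, beside 1384 of all 10315 genes. Without isoflurane replicate 9 limma called 6 members. The share of all genes called in that fit is not given here, so the count is not read as a trait of the members. The interaction was called for 5 members (Srsf2, Srsf5, Prpf18, Hnrnpab and Sf3b2), 8.33% of the 60 beside 7.1% of all genes (2.98% positive and 4.12% negative), a share close to the background.

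Some tissue markers also differed between the groups inside the low-Pcp2 set. Of 24 markers, 20 overlapped between the isoflurane and oxygen arrays there, 2 were higher and 2 lower without overlap. Of all genes, 4.68% were higher and 8.29% lower without overlap, so these few markers are not read as a trait of the markers as a set. Rorb, a gene of cortical neurons, was higher without overlap (9.01 to 10.23 against 7.24 to 8.55), as was the myelin gene Mog (11.21 to 11.85 against 11.06 to 11.18). The cortical neuron genes Neurod6 (9.77 to 10.30 against 10.85 to 10.92) and Emx1 (8.37 to 8.79 against 8.80 to 8.93) were lower. The summed log2 signals, isoflurane against oxygen, were 11.65 to 12.04 against 11.90 to 11.99 for 6 cortical markers and 7.18 to 12.25 against 9.38 to 10.61 for 5 cerebellar markers. For 3 choroid plexus markers they were 8.31 to 9.79 against 9.56 to 13.69, for 3 astrocyte markers 13.28 to 13.68 against 13.56 to 14.01, and for 2 oligodendrocyte markers 14.51 to 14.94 against 14.02 to 14.79. The sums were 9.85 to 10.93 against 9.70 to 10.60 for 3 microglial and 10.73 to 11.65 against 10.84 to 11.01 for 2 endothelial markers. The part of these markers in the low-Pcp2 changes was not tested.

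Some members had their extreme values in the same few libraries. The brightest probe sets of 11 members (Hnrnph1, Hnrnph3, Hnrnpm, Hnrnpu, Prpf18, Prpf38b, Prpf39, Srsf1, Srsf2, Srsf5 and Srsf6) had their 3 lowest values of the 20 arrays in oxygen replicates 2, 3 and 4, beside 3.47% of all genes. They include 5 of the 8 members that rose in the low-Pcp2 arrays. For 0 members were these 3 arrays the 3 highest, beside 3.99% of all genes. The brightest probe sets of 7 members (Prpf8, Sf3b4, Snrpb, Sf3b2, Prpf4, Hnrnpl and Hnrnpul1) had their 4 lowest values in isoflurane replicates 2, 4, 5 and 6. They were 11.67% of the 60, beside 7.69% of all genes, so this count is not read as a trait of the members. None had its 4 highest values there, beside 4.58% of all genes.

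Most families also differed between the array sets, and most members did so in the same direction in oxygen and in isoflurane arrays. As the sets were read from the data, this is a description without a test. The mean log2 signal was higher in the high-Pcp2 arrays for 50 of 60 members (83.3%, beside 55.5% of all genes), with a median difference of 0.25 against 0.07 for all genes. The families had median differences of 0.36 (SR), 0.36 (Prpf), 0.30 (SF3), 0.28 (hnRNP), 0.19 (U2af) and 0.02 (Snrp). The direction was the same in oxygen and in isoflurane arrays for 48 of the 60.

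For 8 members the sets did not overlap, all higher in the high-Pcp2 arrays (Hnrnph1, Hnrnpdl, Srsf1, Prpf3, Prpf38b, Sf3b3, Snrpb and U2af1), beside 10.3% of all genes higher and 10.3% lower without overlap. Within the oxygen arrays 18 members were higher and 0 lower without overlap (17.9% and 16.8% of all genes), and within the isoflurane arrays 25 were higher and 2 lower (21% and 16.9%). Srsf1, the archetypal SR protein, read 11.06 to 11.39 (median 11.24) in the 11 high-Pcp2 arrays and 10.30 to 10.73 (median 10.64) in the 9 low-Pcp2 arrays, a difference in means of 0.70. Prpf3, a tri-snRNP protein, read 9.55 to 9.95 (median 9.75) against 8.57 to 9.20 (median 9.02), a difference of 0.75. Sf3b3, the scaffold subunit of SF3B, read 10.12 to 10.67 against 9.42 to 9.86, a difference of 0.71. Prpf38b read 9.36 to 10.08 against 8.22 to 9.15, a difference of 0.89 and the largest among the 60. Its dimmer probe sets, with low-Pcp2 oxygen values below the filter level, differed by 0.078 and 0.53. The next in size, Prpf39 (0.85) and Hnrnpf (0.83), overlapped between the sets. In the other direction the largest were Snrpd1 (-0.35; 10.09 to 10.60 against 10.44 to 10.98; 0.175 on its second probe set) and Hnrnpr (-0.26; 10.89 to 11.27 against 11.12 to 11.47), which overlapped over all arrays but not within the isoflurane group. Sf3b5 differed little between the sets (-0.06).

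**Figure D3:**
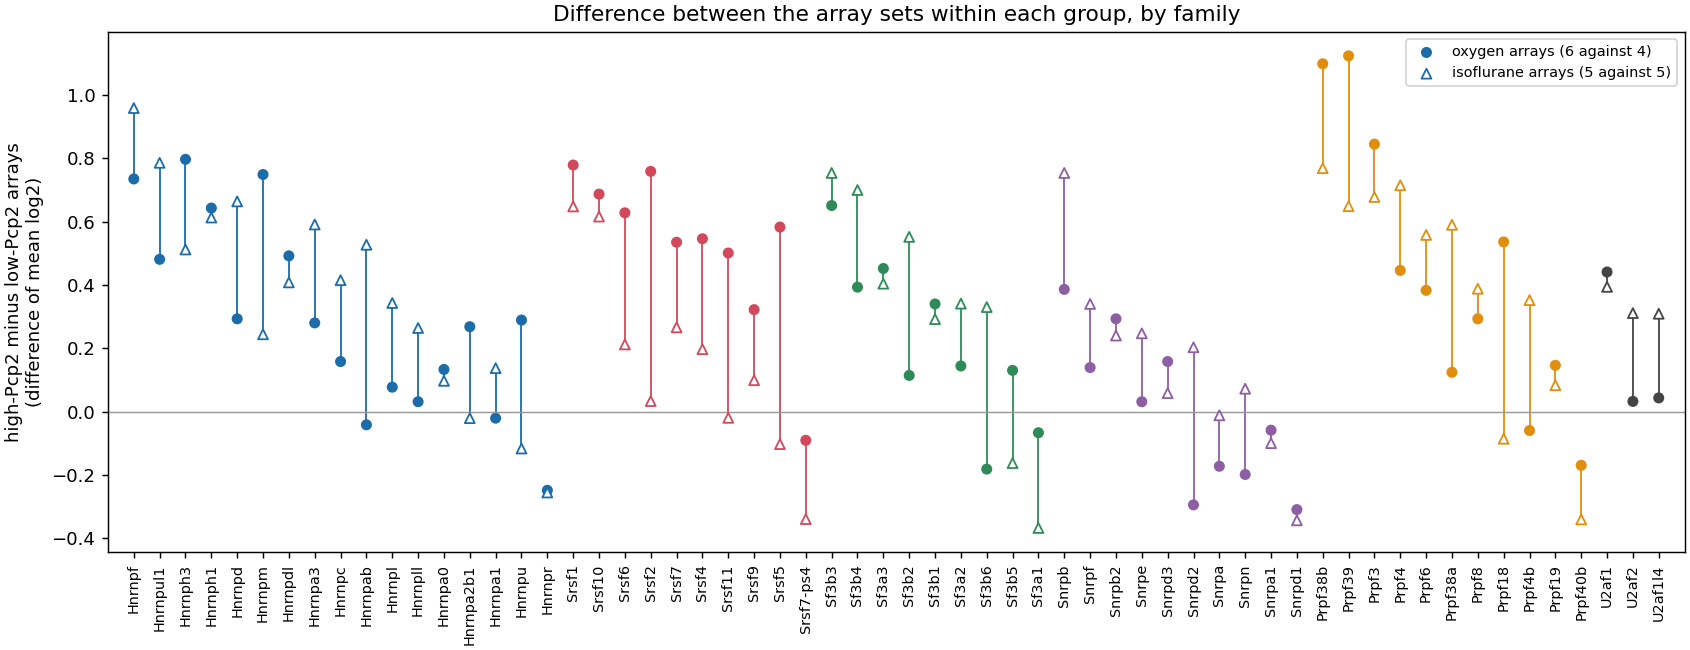
Difference in mean log2 signal between high-Pcp2 and low-Pcp2 arrays for each of 60 genes, ordered by family (hnRNP, SR, SF3, Snrp, Prpf, U2af), in oxygen arrays (filled circles, 6 against 4) and isoflurane arrays (open triangles, 5 against 5). Most points lie above 0, and the Snrp genes lie on both sides.

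For 18 members more than 1 probe set passed the filter, which gave 31 probe sets besides the brightest. In the blocked fit 22 of the 31 had the same sign as the brightest probe set of their gene, and for 12 of the 18 genes all probe sets had the same sign. For the difference between array sets the sign was the same for 27 of the 31, and for all probe sets of 14 of the 18 genes. In the low-Pcp2 arrays limma called most of these probe sets. There 17 of the 31 rose and 1 fell, beside 15.9% higher and 5.55% lower among 3693 such probe sets of all genes, and their median change was 0.59 against 0.02. For 3 of the 17 (both dimmer ones of Prpf38b and the dimmest of Prpf4b) the mean of the low-Pcp2 oxygen arrays lay below the filter level of 6.62. These 3 passed the filter through their other arrays and are kept in the counts and the median. In the blocked fit 5 rose and none fell, beside 4.71% and 3.01%, and both dimmer probe sets of Prpf38b are among the 5. For the interaction 11 were lower and 1 higher, beside 9.83% and 2.71%, and all 3 are among the 11.

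Prpf38b gave the widest spread between probe sets. Its second probe set read 6.21, 2.28, 6.14 and 5.44 in the low-Pcp2 oxygen arrays, and 9.25, 9.26, 9.05, 9.42 and 7.09 in the low-Pcp2 isoflurane arrays. The third read 5.57, 3.33, 5.15 and 5.14 in oxygen and 8.41, 8.18, 8.14, 8.29 and 6.75 in isoflurane. All of these oxygen values lie below the filter level of 6.62, and both probe sets passed it through their other arrays. No size of their change in the low-Pcp2 arrays is therefore given in the text. In the high-Pcp2 arrays their changes were 0.26 and 0.61, while the brightest probe set rose by 0.55 ± 0.15 in the low-Pcp2 arrays (limma adjusted p = 0.0312). Isoflurane replicates 2, 4, 5 and 6 were the 4 highest of the 20 arrays on both dimmer probe sets, and oxygen replicates 2, 3 and 4 were the 3 lowest.

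Prpf4b, a kinase of the spliceosome, was read the same way by its second probe set. It gave 10.63, 10.57, 10.54 and 10.58 in isoflurane replicates 2, 4, 5 and 6, 8.15 in isoflurane replicate 10, and 8.17, 7.03, 8.01 and 6.39 in the low-Pcp2 oxygen arrays. The change was 2.69 ± 0.53 (limma adjusted p = 0.011), while its brightest probe set had a change of -0.25 (adjusted p = 0.202). The second probe set of Srsf11, an SR-related protein, read 11.02, 11.18, 11.01 and 11.37 in the same 4 isoflurane arrays and 8.80 to 10.11 in the other 16. The second probe set of Sf3b2 rose by 1.31 ± 0.30 in the low-Pcp2 arrays (adjusted p = 0.0155), where the brightest fell by 0.37. The second probe set of U2af2 read 6.90, 6.27, 6.50 and 6.92 in those 4 arrays and 7.51 to 8.82 in the other 16.

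Over all 31 probe sets, 5 had their 4 highest values in isoflurane replicates 2, 4, 5 and 6 (beside 10.7% of such probe sets of all genes) and 1 its 4 lowest (beside 12.1%). For 13 of the 31 the 3 lowest values were those of oxygen replicates 2, 3 and 4, beside 6.44%, and for none the 3 highest, beside 0.867%. On the third probe sets of Hnrnpa1 and Hnrnpu, for example, these oxygen arrays read 9.02, 8.98 and 8.82, and 6.63, 6.99 and 6.94, while the lowest of the other 17 arrays read 9.93 and 8.56. The 3′ to 5′ ratio of these arrays is given above. The part of probe set position or of transcript form in these differences was not tested.

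**Figure D4:**
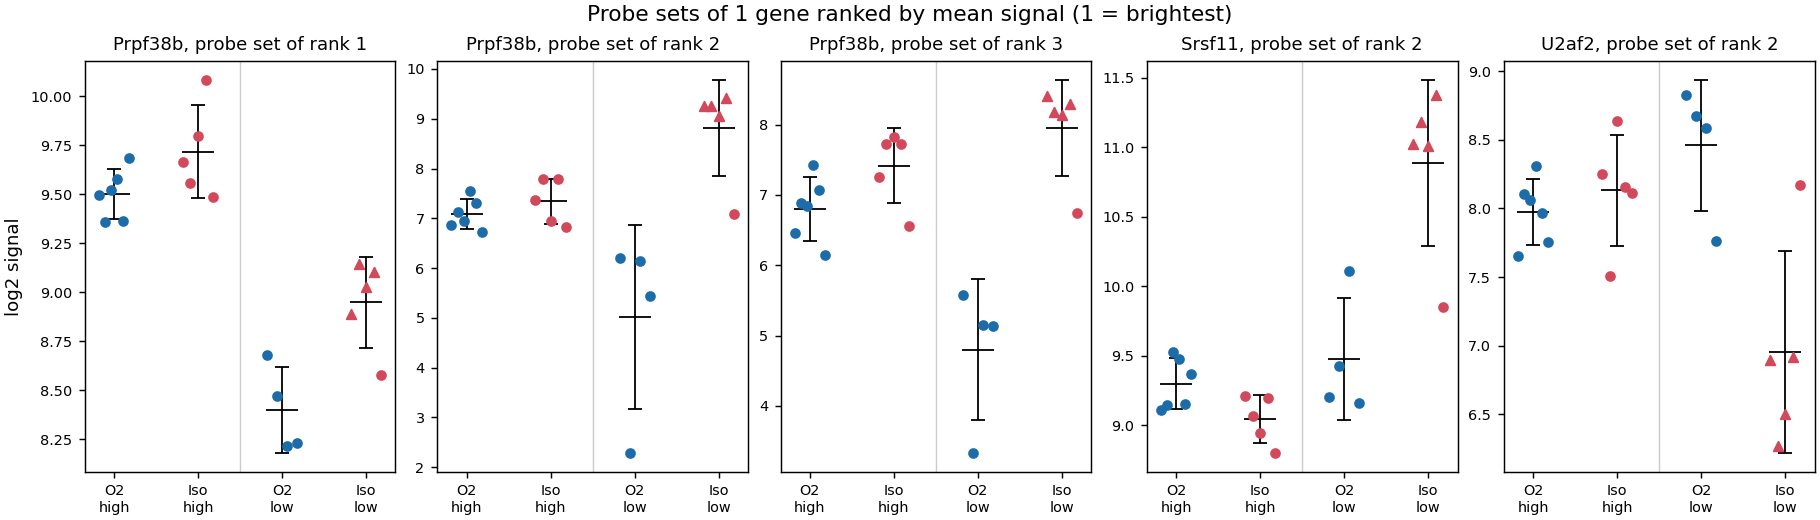
Log2 signal of the 3 probe sets of Prpf38b (rank 1 is the brightest) and of the second probe sets of Srsf11 and U2af2, by group (O2, oxygen, blue; Iso, isoflurane, red) and array set, with bars for the mean ± SD. Triangles are isoflurane replicates 2, 4, 5 and 6, which stand above all other arrays on ranks 2 and 3 of Prpf38b and on Srsf11 and below them on U2af2.

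A list of 119 other splicing genes was read in the same way, and 103 of the 108 on the array passed the filter. Over all arrays 1 of them changed (0.971%, beside 0.524% of all genes). Raver1, a partner of the polypyrimidine tract binding protein, fell by 1.37 ± 0.29 (limma adjusted p = 0.0485). The call was at the threshold and held in 4 of 20 fits that left out 1 array. Raver1 read 8.17, 8.22, 8.13 and 8.58 in the low-Pcp2 oxygen arrays, and 5.56, 6.02, 6.58, 6.58 and 7.63 in the low-Pcp2 isoflurane arrays. In isoflurane replicates 2, 4, 5 and 6 it lay below the filter level of 6.62, so the size of the fall is uncertain. In the high-Pcp2 set Raver1 read 8.11 to 9.00 in oxygen, and 7.46, 7.66, 7.07, 7.52 and 8.67 in isoflurane. In the blocked fit 7 of the 103 rose and 5 fell, 11.7% beside 7.73% of all genes. Clk4, a kinase that phosphorylates SR proteins, rose by 0.68 ± 0.19 (adjusted p = 0.0336), the helicase Ddx5 by 0.22 ± 0.06 (adjusted p = 0.0307) and Lsm1, of the cytoplasmic mRNA decay ring, by 0.51 ± 0.14 (adjusted p = 0.0332). Eftud2, the GTPase of the U5 particle, fell by 0.49 ± 0.14 (adjusted p = 0.0415). The lowest p-values of the exon junction and Prpf19-complex lists belonged to Rbm8a (0.27 ± 0.11, adjusted p = 0.117) and Bcas2 (0.22 ± 0.07, adjusted p = 0.0532), which did not pass. No call in this list remained without isoflurane replicates 2, 4, 5 and 6, without oxygen replicates 2, 3 and 4 or with the 3′ to 5′ ratio in the fit, for the genes named here.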

How the data were processed

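The authors deposited a table of linear array intensities for 20 arrays, and per the submitters' processing notes these came from MAS5, run in Affymetrix Expression Console; versions and settings are not given in the sources used here. A mean trimmed by 2% at each end was 500.1 to 500.2 on every array, so the arrays arrived scaled to a common level. For this report values below 1 (2079 in all) were set to 1 before taking log2, and the arrays were not normalized again. Of 31099 rows, 57 were control probe sets. Of the other 31042, 20826 carried 1 gene symbol in the platform annotation, 436 several and 9780 none; symbols were updated by gene ID through RefSeq's GRCr8 table, used for names only, and promoters came from RefSeq on the same assembly. The 8 probe sets that name several genes of these families were left out.

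The 18625 probe sets with a mean log2 above the 40th percentile (6.62) were fitted in R 4.3.3 by lmFit and eBayes (trend on mean signal) of limma 3.58.1, with Benjamini-Hochberg adjustment over all of them and a threshold of 0.05. Fits compared isoflurane with oxygen over all arrays, with the array set as a block, within each set, and by the interaction of group and set, written as the change in high-Pcp2 minus that in low-Pcp2 arrays. Arrays were split at a Pcp2 log2 signal of 12. The fits were tested on simulated data with known changes. For the alternative fits, counts of members called or at an unadjusted p under 0.05 are given without the share over all genes. Those counts show how the calls depend on the processing and are not read as a trait of the members. Arrays have no read depth, and the number of arrays limits the precision.

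Named are Sf3b5 and, in each family, up to 3 members with the lowest p over all arrays, 4 past the threshold in the blocked fit, 2 with the largest difference between array sets and 3 past the threshold for the interaction. Also named are members past a threshold whose other probe sets have the opposite sign, and, of the other splicing genes, those past the threshold over all arrays and the lowest p of each list in the blocked fit. Other genes are named where a count is given by name. The members, the gene lists and the array sets were chosen with earlier results of these data known. The alternatives were quantile normalization, median centring, pseudocounts of 16 and 64, no trend, the mean of a gene's probe sets, a stricter filter (60th percentile) or none, the 3′ to 5′ ratio, the replicate number as a block, and arrays left out singly or in sets.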

Additional observations from a re-analysis of the deposited data

Results flagged for a closer look

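In the following genes 1 array lay apart from the other 9 of its group by Dixon's criterion, which flags about 1 in 20 groups by chance; 7 of 74 groups of 10 were marked. Isoflurane replicate 10 was the lowest isoflurane array of Hnrnpa2b1 (11.96), Srsf2 (11.16), Srsf11 (10.92) and Lsm1 (8.52). Oxygen replicate 2 was the lowest oxygen array of Prpf18 (8.85), oxygen replicate 5 was the highest of Prpf19 (11.36), and oxygen replicate 10 was the highest of U2af2 (11.50).

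The change after isoflurane differed between the high-Pcp2 and low-Pcp2 arrays, by limma's interaction test, for the brightest probe sets of 5 members. They were Srsf2 (-0.73), Srsf5 (-0.69), Prpf18 (-0.62), Hnrnpab (0.57) and Sf3b2 (0.44). Each value is the change in high-Pcp2 minus that in low-Pcp2 arrays on the log2 scale. The 5 were 8.33% of the 60 members, beside 7.1% of all genes, a share close to the background. On the second probe sets the difference was -0.03 for Srsf2 (limma adjusted p = 0.917) and -1.37 for Sf3b2 (adjusted p = 0.0146), the latter opposite in sign to the brightest.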

How the results depend on the processing

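Over all arrays the count of 1 called member became 0 with quantile normalization, with arrays centred on their medians, without the intensity trend, without the filter, with the 3′ to 5′ ratio as a covariate, with the replicate block, without isoflurane replicates 2, 4, 5 and 6 and without oxygen replicates 2, 3 and 4 (limma; 8 to 15 members at an unadjusted p under 0.05 in these fits), and 3 with the filter at the 60th percentile. It ranged from 0 to 5 with 1 array left out, the most without isoflurane replicate 9. The count of 9 in the blocked fit ranged from 5 to 11 with 1 array left out (fewest without oxygen replicate 2, most without oxygen replicate 5). It was 0 with the 3′ to 5′ ratio, with the replicate block and without either set of arrays, and 6 to 9 otherwise. The high-Pcp2 count of 0 held under all scalings and filters run, and ranged from 0 to 6 with 1 array left out. The low-Pcp2 count of 13 was 0 with the 3′ to 5′ ratio and without either set of arrays, 18 with the mean of a gene's probe sets, and 5 (without oxygen replicate 2) to 22 (without oxygen replicate 1) with 1 array left out. The interaction count of 5 was 14 with arrays centred on their medians (13 positive and 1 negative), 8 with the mean of probe sets, 3 with the ratio, 0 without isoflurane replicates 2, 4, 5 and 6, 0 without oxygen replicates 2, 3 and 4 (0 and 2 members at an unadjusted p under 0.05), and 2 (without oxygen replicate 3) to 13 (without isoflurane replicate 10) with 1 array left out. The cause of these changes was not tested. Median centring moved the median of all genes by more than 0.1 in the low-Pcp2 arrays (-0.05 to -0.26) and in the interaction (0.05 to 0.30). The sign turned for Prpf4 over all arrays without the 4 isoflurane arrays (0.066), for U2af1 over all arrays without the 3 oxygen arrays (-0.014) and for the interaction of Sf3b2 with the mean of its probe sets (-0.47). The 3′ to 5′ ratio in the low-Pcp2 and interaction fits, the low-Pcp2 and interaction fits without the isoflurane arrays, and every fit without oxygen replicates 2, 3 and 4 were chosen after seeing the data.

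The replicate numbers gave no clear sign of pairing the arrays. Centred on the group alone, arrays with the same number had correlated deviations (r above 0.1) in 5 of 10 pairs, from -0.66 to 0.62. Of the 20 arrays, 0 correlated best with the array of their own number. The sign of r followed the array set, so these values cannot decide on pairing. It was positive for replicates 2, 4, 7, 8 and 9, whose arrays shared a set. It was negative for replicates 1, 3, 5, 6 and 10, whose arrays lay in opposite sets. Centred on the group and the array set, r had both signs, from -0.26 (replicate 9) to 0.23 (replicate 1). The replicate block left 0 members called both over all arrays and with the array set in the fit (11 and 18 at an unadjusted p under 0.05).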

Other observations

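Among the other splicing genes, Clk1, a kinase that phosphorylates SR proteins, and Srrm2, a large nuclear speckle protein, were chosen after their values were seen. Clk1 read 10.90 in oxygen replicate 1, 9.04, 9.20 and 8.87 in oxygen replicates 2, 3 and 4, and 10.73 to 11.40 in the 5 low-Pcp2 isoflurane arrays. The high-Pcp2 arrays of both groups read 10.98 to 11.58. Its change was 1.73 ± 0.35 in the low-Pcp2 arrays (limma adjusted p = 0.0118) and 0.14 ± 0.10 in the high-Pcp2 arrays, a difference of -1.59 ± 0.37 (adjusted p = 0.0125). Clk4 showed the same 3 arrays lowest, at 8.47, 8.41 and 8.15, with 9.37 in oxygen replicate 1. Srrm2 instead read 13.51, 13.43, 13.25 and 13.71 in isoflurane replicates 2, 4, 5 and 6, and 11.45 to 12.58 in the other 16 arrays.

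Srsf3, the member below the filter, read 3.06 to 4.60 in the low-Pcp2 oxygen arrays and 4.77 to 5.82 in the low-Pcp2 isoflurane arrays, signals at which a single array value carries little weight.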
